A study of Homo sapiens with 5 samples.

Results

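The MYC, MAX and MXD network was followed in COV434 cells given 3-nitropropanoic acid (3-NP). Its 10 genes were taken by name (MYC, MYCN, MYCL, MAX, MXD1, MXD3, MXD4, MXI1, MNT and MLX) after the Ensembl IDs of the files had been matched to GENCODE 29 symbols. All 10 were among the 30631 genes listed, and 8 passed the filter on low values. COV434 is an established human line that the labels call an ovarian granulosa tumour cell, and 3-NP is an irreversible inhibitor of complex II, the succinate dehydrogenase of the mitochondrial inner membrane. Controls had 2 libraries and 3-NP cells had 3, all wild type as far as the labels go, with no dose, duration or vehicle stated for either group. Every title names COV434, although the cell line field counts upward to COV438 over the samples, and no label ties the libraries to separate cultures, so the p-values refer to the spread among these libraries, possibly only technical.

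MYC proteins are basic helix-loop-helix leucine zipper transcription factors that bind DNA as dimers with MAX, at the E-box CACGTG and its variants, and raise the transcription of genes for ribosome production, nucleotide synthesis and cell cycle entry. The MXD proteins and MNT dimerise with the same partner and bind the same boxes, but bring the SIN3 and histone deacetylase corepressor to them, and MXD levels typically increase as cells leave the cycle. MLX is a second common partner, shared by some MXD proteins, MNT and the glucose-sensing factors MondoA and ChREBP. MYC messenger RNA and protein are both very short-lived.

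Levels are FPKM, that is, reads corrected for the length of the gene and the depth of the library. Working back from the values, the 5 libraries held 17838000 to 18883000 reads, so that 3 reads on a gene of 2 kb came to 0.0794 to 0.0841 FPKM (counting error only). Changes below are fitted differences of log2(FPKM + 1), 3-NP minus control, with limma's standard error (SE) and Benjamini-Hochberg adjusted p over the 11858 genes that reached 1 FPKM in 2 or more libraries, and a gene is called at an adjusted p under 0.05. Of all genes tested 40.8% were called, 15.5% higher and 25.2% lower in 3-NP cells, and in 64.2% the 3-NP and control ranges were separate. Lower calls made up 61.9% of calls, against 51.2% with median-of-ratios scaling, which moved the median change of all genes by 0.10, and 51.8% with the trend on gene length removed. Equal FPKM totals went the other way, with 68.9% of calls lower and the median moved by −0.09. Of 10 granulosa markers, 5 were under 1 FPKM in every library, among them the FSH receptor FSHR, the aromatase CYP19A1 and the inhibin subunit INHA, while FOXL2 was at 5.50 and 6.90 FPKM in controls and 2.33 to 2.71 FPKM in 3-NP cells. The steroidogenic factor NR5A1 was at 21.9 and 24.9 FPKM in controls and 11.4 to 14.1 FPKM in 3-NP cells, a call lost without control replicate 2 (adjusted p = 0.0548). The granulosa list summed to 36.8 and 40.9 FPKM in controls and 23.3 to 25.7 in 3-NP cells, with NR5A1 the largest part. The other tested granulosa markers were not called. GATA4 lay higher in every 3-NP library than in both controls (0.38, limma adjusted p = 0.0846), and AMH and INHBA overlapped. Fibroblast and theca markers summed to 608 and 621 FPKM against 93.2 to 175, nearly all of it the collagen COL1A1, with the theca hormone INSL3 at 0 throughout. In that list DCN, which was not called, lay higher in every 3-NP library than in both controls. PDGFRA, which failed the filter on low values, lay lower. Epithelial markers summed to 1.04 to 2.68 FPKM over the 5 libraries and endothelial markers to 0.322 and 0.394 in controls and 1.52 to 2.57 in 3-NP cells, most of it the receptor KDR. The epithelial claudin CLDN4 was at 0.286 and 0.408 FPKM in controls and 0.935 to 1.65 FPKM in 3-NP cells, a call lost without control replicate 1 (adjusted p = 0.0881) or 2 (0.122) and with no low-value filter (0.057). CDH1 of the same list went the other way, at 0.190 and 0.209 FPKM in controls and 0.0171 to 0.113 FPKM in 3-NP cells. It failed the filter on low values, as did EPCAM, MUC1 and KRT5, in which the groups overlapped. The 3 immune markers listed summed to 0.0425 to 0.106 FPKM, with the lysozyme gene LYZ at 0. The part of these shifts in the results below was not tested.

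Of the 8 network genes tested, 3 fell (MYC, MXD4 and MNT), 1 rose (MXD1) and 4 were not called (MAX, MLX, MXI1 and MXD3). The share of lower calls was 37.5% against 25.2% of all genes, and that of higher calls 12.5% against 15.5%, shares that 1 gene more or less would move by 12.5 percentage points. The median change of the 8 was −0.16, against −0.11 over all genes tested. The 4 called genes were also the tested members in which the groups did not overlap, 3 lower and 1 higher. Over all genes the groups did not overlap in 64.2%, with 38.4% lower and 25.8% higher.

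The sequences that bear on these genes are the stretches around the transcription start, since the network binds E-boxes there. RefSeq promoters (GRCh38.p14, 250 bases before to 50 after the start) were matched for 9 of the 10 genes. The canonical box was searched as CACGTG, which reads the same on both strands. It was in 3 of the 9, those of MXD4, MNT and MLX, against 7.44% of the 27305 promoters in the table and 10.3% of those of genes tested here. The promoters of the pair of MXD genes that changed in opposite directions are shown whole, 5′ to 3′ on the gene's strand, with any CACGTG in capitals. MXD4 lies at chr4:2262060-2262359 (minus strand) and holds 1 box, which begins at base −238 from the start. MXD1 lies at chr2:69914859-69915158 (plus strand), inside the gene as GENCODE 29 draws it, and holds none.
MXD4: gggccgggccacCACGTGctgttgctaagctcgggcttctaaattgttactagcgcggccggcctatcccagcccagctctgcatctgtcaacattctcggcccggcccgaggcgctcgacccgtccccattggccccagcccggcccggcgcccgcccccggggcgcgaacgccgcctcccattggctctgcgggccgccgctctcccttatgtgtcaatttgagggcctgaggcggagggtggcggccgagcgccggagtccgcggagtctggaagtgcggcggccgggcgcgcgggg
MXD1: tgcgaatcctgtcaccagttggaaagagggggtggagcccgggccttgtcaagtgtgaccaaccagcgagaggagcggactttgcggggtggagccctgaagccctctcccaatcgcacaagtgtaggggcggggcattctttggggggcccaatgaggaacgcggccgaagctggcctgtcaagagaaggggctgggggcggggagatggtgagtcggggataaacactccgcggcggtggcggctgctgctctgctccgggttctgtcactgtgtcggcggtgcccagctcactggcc
The other boxes of network genes are shown with up to 22 bases on each side. That of MNT (chr17:2401226-2401275, minus strand) begins at base −193, and that of MLX (chr17:42567028-42567077, plus strand) at base −50.
MNT: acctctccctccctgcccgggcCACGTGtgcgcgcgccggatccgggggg
MLX: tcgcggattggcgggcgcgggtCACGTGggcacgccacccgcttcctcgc
MXD4 and MNT fell and MLX was not called, so the box was found in genes of both outcomes. A match is only the letters in this window and does not show binding.

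MYC was the most abundant network gene in control cells and the one with the largest loss of FPKM. It stood at 23.1 and 26.0 FPKM in the controls and at 13.2, 10.95 and 12.1 FPKM in 3-NP replicates 1, 2 and 3. Every 3-NP library lay well under both controls. The mean went from 24.5 ± 2.05 (SD, n = 2) to 12.1 ± 1.12 FPKM (SD, n = 3), 2.03 times lower, with a fitted change of −0.97 ± 0.14 SE (95% interval −1.30 to −0.63, limma adjusted p = 0.00257). MYC, on chromosome 8, kept this call in all 14 other settings of the analysis, where its change lay between −1.06 and −0.85. In bulk RNA, fewer cells with a transcript and less of it per cell cannot be told apart. Protein-coding genes whose profile over the 5 libraries was among the nearest to that of MYC (log2(FPKM + 1) centred on the control mean) were the ubiquitin ligase RNF135, the deubiquitinase USP5, the endonuclease partner EME2 and the membrane protein CKAP4, at root mean square differences of 0.027 to 0.038. RNF135 stood at 6.46 and 7.3 FPKM in controls and 3.39, 2.67 and 3.22 FPKM in 3-NP cells.

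The MYC relatives were scarce. MYCL, which in adult tissue is best known from small cell lung cancer and dendritic cells, was at 0.0843 and 0.155 FPKM in controls and 0.753, 0.720 and 0.598 FPKM in 3-NP cells. These values correspond to 8 and 14 reads in controls and 72, 68 and 57 reads in 3-NP cells. All 3-NP libraries were thus above both controls, at a mean level 5.77 times higher, yet below the filter on low values, and the gene was not tested in the fit described above. With no such filter it passed (0.59 ± 0.10 SE, limma adjusted p = 0.0241). Even at its highest, MYCL was far under MYC in the same library. An antisense gene on the opposite strand shares 226 bases of its exons and was itself at 0.0697 FPKM in controls and 0 in 3-NP cells. MYCN, the neuroblastoma oncogene, was listed at 0 and 0.0215 FPKM in controls and at 0, 0.0412 and 0.0612 FPKM in 3-NP cells, which is 3 reads or fewer in any library, and no difference was detectable at this depth.

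The common partners did not pass the test. MAX, the obligate partner of MYC, was at 8.15 and 9.44 FPKM in controls and 7.54, 8.16 and 8.86 FPKM in 3-NP cells. The groups overlapped, with a change of −0.09 ± 0.14 SE (95% interval −0.43 to 0.24, limma adjusted p = 0.631), and its sign was positive under quantile normalization, median-of-ratios scaling, removal of the length trend and without control replicate 2. MYC exceeded MAX by 2.83 and 2.75 times in the controls and by 1.75, 1.34 and 1.37 times in 3-NP cells, on the FPKM scale. MLX was at 15.0 and 16.3 FPKM in controls and 15.3, 15.0 and 18.2 FPKM in 3-NP cells (0.04 ± 0.15 SE, 95% interval −0.30 to 0.38, limma adjusted p = 0.838). Its libraries overlapped too, and the sign turned with equal FPKM totals (−0.06), under the replicate block (−0.04), without 3-NP replicate 3 (−0.04) and without control replicate 1 (−0.01). The intervals of both genes leave room for changes of up to about 0.4 in size on this scale. MLX shares 770 exonic bases with the oppositely oriented PSMC3IP, which was at 1.58 FPKM in controls.

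The MXD genes moved in different directions. MXD1 (MAD1), the founding member and a gene known to be induced as blood and epithelial cells differentiate, rose. It was at 1.52 and 1.68 FPKM in controls and 3.45, 5.2 and 3.75 FPKM in 3-NP cells. The lowest 3-NP library held more than double the level of the higher control, from 190 reads in that control to 414 in that library. The mean went from 1.6 ± 0.111 (SD, n = 2) to 4.14 ± 0.934 FPKM (SD, n = 3), 2.59 times higher (0.97 ± 0.18 SE, 95% interval 0.55 to 1.39, limma adjusted p = 0.00545). Leaving out control replicate 1 took it just past the threshold (0.92, adjusted p = 0.0505), and the other 13 settings kept the call. The gene spans positions 69897688 to 69942945 of chromosome 2 and shares 237 exonic bases with SNRNP27, a gene on the same strand that went from 14.3 to 9.36 FPKM.

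MXD4, which is found in many adult tissues, fell. It was at 9.78 and 11.97 FPKM in controls and 4.72, 4.69 and 5.27 FPKM in 3-NP cells, with a clear gap between the groups. The mean went from 10.9 ± 1.55 (SD, n = 2) to 4.89 ± 0.326 FPKM (SD, n = 3), 2.22 times lower (−1.01 ± 0.15 SE, 95% interval −1.35 to −0.66, limma adjusted p = 0.00238). The call held in all 14 other settings, with changes between −1.14 and −0.86. MXD4 spans positions 2247432 to 2262294 of chromosome 4.

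MXI1 (MXD2), a candidate tumour suppressor that is also induced by low oxygen through HIF in several cell types, was at 8.01 and 6.18 FPKM in controls and 7.59, 8.63 and 8.70 FPKM in 3-NP cells. One 3-NP library lay between the controls and the others above both, and the change was 0.21 ± 0.16 SE (95% interval −0.16 to 0.57, limma adjusted p = 0.314). MXD3, the member linked in mouse to cells still in S phase, was at 0.983 and 1.45 FPKM in controls and 0.462, 1.18 and 1.09 FPKM in 3-NP cells. The groups overlapped (−0.23 ± 0.21 SE, 95% interval −0.73 to 0.27, limma adjusted p = 0.422). Of the exonic bases of MXD3, 18.0% are shared with RAB24 on the same strand and 22.5% with PRELID1 on the other, which was at 35.0 FPKM in controls, and how shared reads were counted is not given in the sources used here.

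MNT, a broadly expressed MYC antagonist that does not depend on differentiation, was at 2.24 and 2.01 FPKM in controls and 1.6, 1.12 and 1.03 FPKM in 3-NP cells. All 3-NP libraries lay under both controls, 3-NP replicate 1 being nearest. The mean went from 2.12 ± 0.160 (SD, n = 2) to 1.25 ± 0.305 FPKM (SD, n = 3), 1.69 times lower (−0.48 ± 0.16 SE, 95% interval −0.86 to −0.10, limma adjusted p = 0.0497). This call stood at the threshold and was lost in 10 of 14 other settings. Among them were median-of-ratios scaling (adjusted p = 0.0977), removal of the length trend (0.151), the replicate number as a block (0.151) and the fits without control replicate 1 (0.280) or 2 (0.173) or without 3-NP replicate 2 (0.109) or 3 (0.102). The sign was negative in all 14.

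**Figure D1:**
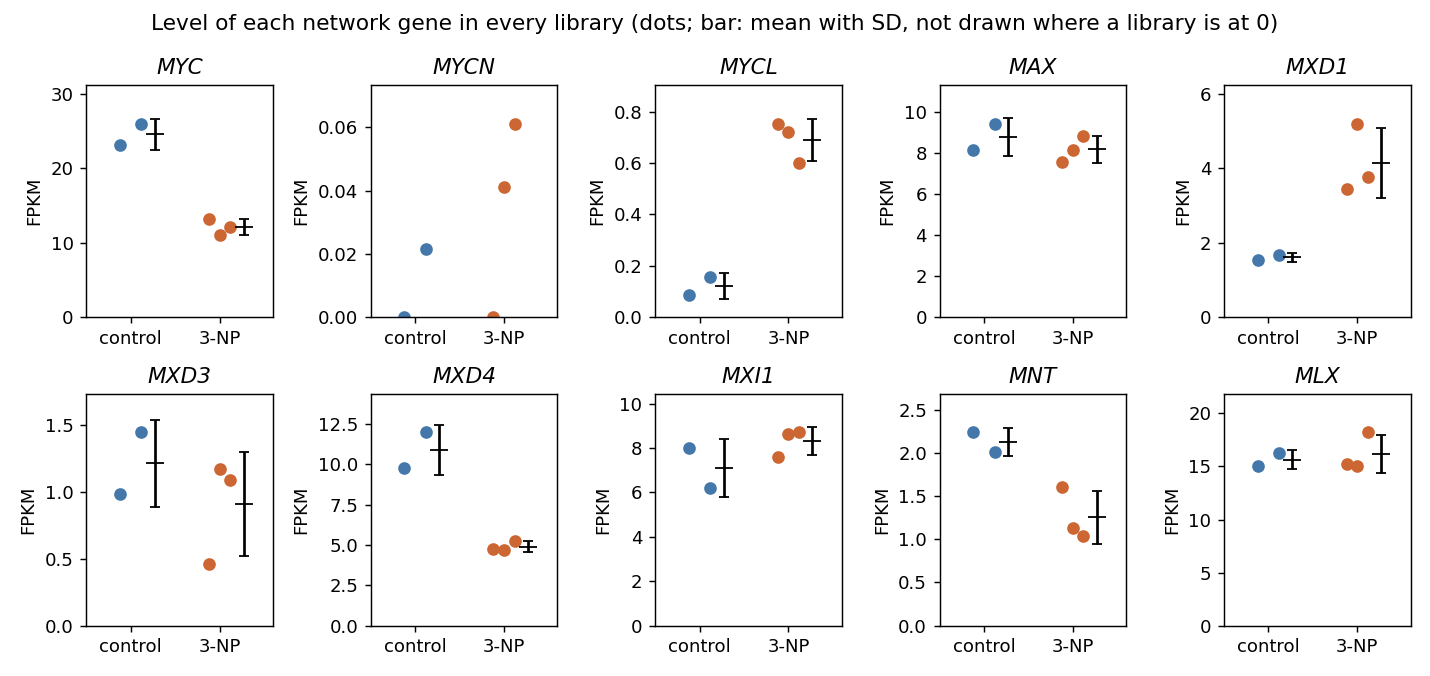
FPKM of each of the 10 network genes (vertical axes, linear from 0, a scale for each gene) in the control libraries (blue) and the 3-NP libraries (orange), with mean and SD beside the dots where no library is at 0. MYC, MXD4 and MNT lie lower and MXD1 and MYCL higher in all 3 3-NP libraries, while MAX, MLX, MXI1, MXD3 and MYCN overlap.

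**Figure D2:**
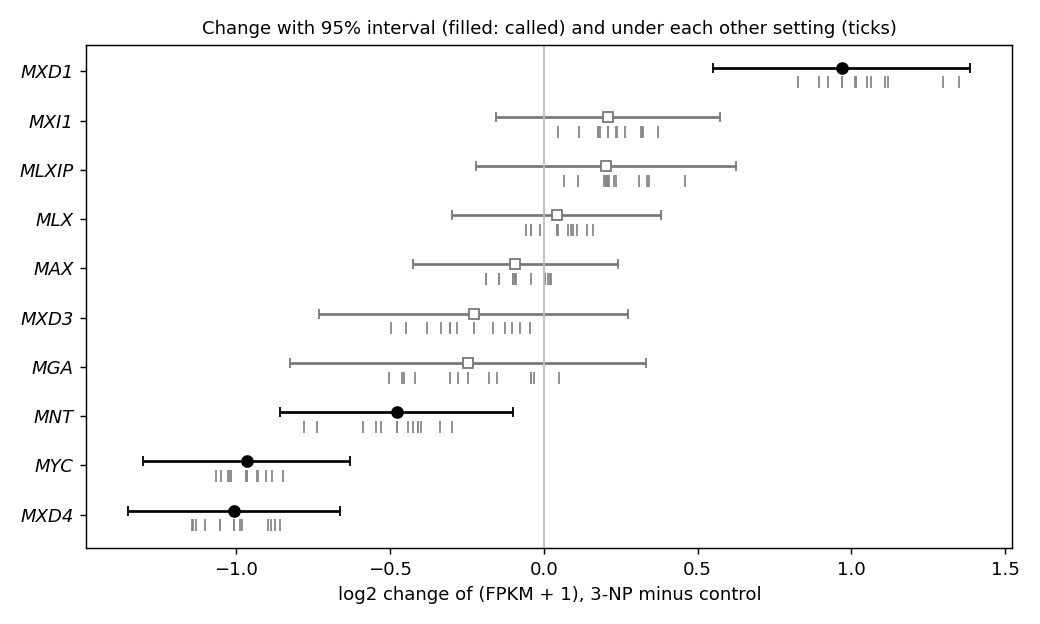
Fitted change of log2(FPKM + 1), 3-NP minus control (horizontal axis), for the tested network genes with MGA and MLXIP, with 95% intervals; filled circles were called, open squares were not, and grey ticks give the change in each other setting. The intervals of MYC, MXD4 and MNT lie below 0 and that of MXD1 above it, and the ticks of MAX, MLX and MGA fall on both sides of 0.

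Together these values shifted the order of the levels. In controls MYC led (24.5 FPKM), followed by MLX (15.6), MXD4 (10.9), MAX (8.79), MXI1 (7.10), MNT (2.12), MXD1 (1.6), MXD3 (1.21), MYCL (0.120) and MYCN, and the ranges of neighbours did not overlap, although each rests on a pair of libraries. In 3-NP cells MLX came first (16.2 FPKM), then MYC (12.1), MXI1 (8.31), MAX (8.19), MXD4 (4.89), MXD1 (4.14), MNT (1.25), MXD3 (0.910), MYCL (0.690) and MYCN. There the ranges of MXI1 and MAX, of MXD4 and MXD1, of MNT and MXD3 and of MXD3 and MYCL overlapped. The summed level of the MYC family went from 23.2 and 26.2 FPKM to 13.9, 11.7 and 12.8 FPKM. That of the antagonists (MXD1, MXD3, MXD4, MXI1 and MNT) was 22.5 and 23.3 FPKM in controls and 17.8, 20.8 and 19.9 FPKM in 3-NP cells. The ratio of the first sum to the second was 1.03 and 1.12 in controls and 0.782, 0.563 and 0.644 in 3-NP cells, so it lay above 1 in both controls and below 1 in all 3-NP libraries. Within the antagonist sum MXD4 made up 43.4% and 51.4% in controls and 22.5% to 26.5% in 3-NP cells, and MXD1 6.74% and 7.20% against 18.9% to 25.0%. The share of MXI1 was 35.5% and 26.5% in controls and 41.5% to 43.8% in 3-NP cells. These are sums of RNA levels and carry no test.

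**Figure D3:**
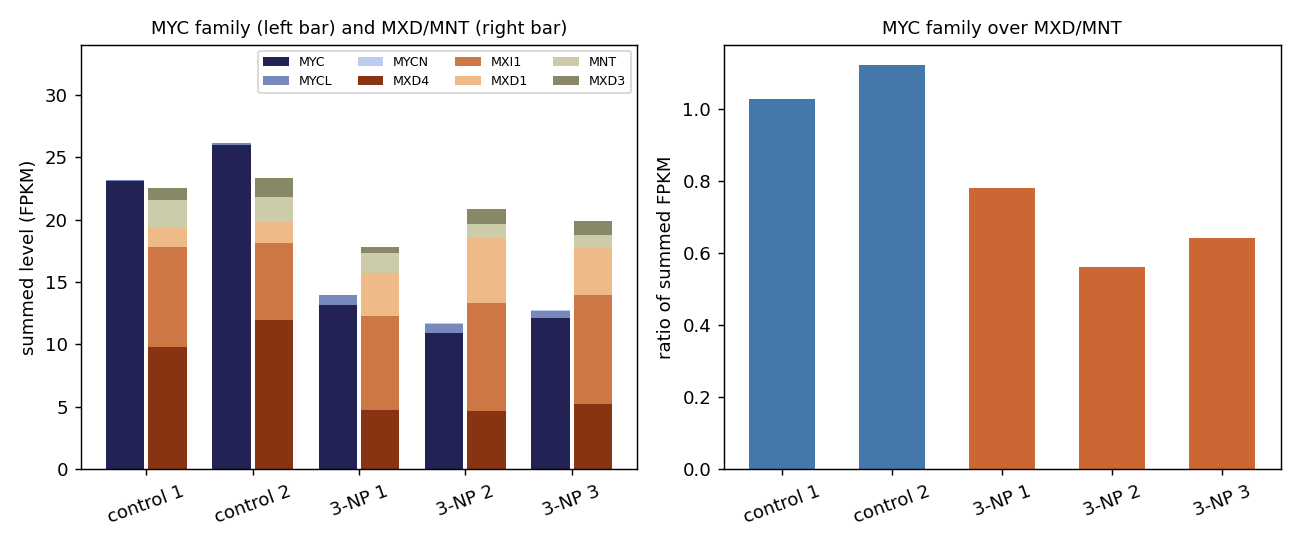
Left, summed FPKM (vertical axis, from 0) of the MYC family (left bar of each pair) and of the MXD genes with MNT (right bar) in each of the 5 libraries, split by gene; right, the ratio of the sums. The MYC bars drop from 23.2 and 26.2 FPKM to between 11.7 and 13.9 FPKM, and the ratio goes from 1.03 and 1.12 to between 0.563 and 0.782. The antagonist bars change in makeup, with less MXD4 and more MXD1. Their mean sum goes from 22.9 to 19.5 FPKM, which alone would raise the ratio.

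Of the genes whose proteins join the network through MAX or MLX, MGA and MLXIP were not called and MLXIPL was not tested. MGA, a very large MAX partner that belongs to a Polycomb complex, was at 1.81 and 1.09 FPKM in controls and 1.14, 1.59 and 0.536 FPKM in 3-NP cells (−0.25 ± 0.25 SE, limma adjusted p = 0.453), and its sign turned with the length trend removed (0.05). MLXIP, which encodes MondoA, was at 5.65 and 5.73 FPKM in controls and 8.32, 5.41 and 6.63 FPKM in 3-NP cells (0.20 ± 0.18 SE, limma adjusted p = 0.397). MLXIPL, which encodes ChREBP, was under the filter at 0.0886 and 0.0815 FPKM in controls and 0.187, 0.434 and 0.562 FPKM in 3-NP cells. All its 3-NP libraries lay above both controls, at 17, 39 and 51 reads against 8 and 7. Of 7 tested genes known as targets of MondoA, ChREBP and MLX, 4 fell and 2 rose (57.1% lower and 28.6% higher, against 25.2% and 15.5% of all genes), with a median change of −0.59. TXNIP, the thioredoxin-binding inhibitor of glucose uptake that MondoA induces, was at 52.2 and 55.1 FPKM in controls and 17.4, 10.2 and 12.7 FPKM in 3-NP cells. That is 3.99 times lower on average, with no overlap (−1.95 ± 0.21 SE, limma adjusted p = 0.00088). Its relative ARRDC4 (−0.59), the transcription factor KLF10 (−0.79) and the fatty acid synthesis enzyme ACACA (−0.68) fell too. For ARRDC4 the adjusted p was 0.194 and 0.112 without control replicate 1 or 2, KLF10 0.0926 and ACACA 0.204 without control replicate 1, while ACACA had 0.0571 without 3-NP replicate 2. ARRDC4 and ACACA also missed the threshold with no low-value filter (0.0795 and 0.0832) and after quantile normalization (0.0581 and 0.0532), and ARRDC4 under the block (0.0855). The pentose phosphate enzyme TKT (0.95, adjusted p = 0.0548 without control replicate 1) and the desaturase SCD rose. SCD was at 13.6 and 11.7 FPKM in controls and 106, 35.4 and 33.8 FPKM in 3-NP cells, so 3-NP replicate 1 stood far above the others, and its call was lost without control replicate 1 (0.0618) or 2 (0.0748) and with no low-value filter (0.0799).

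The list of genes that MYC is known to activate holds 70, mainly for ribosome assembly, nucleotide and polyamine synthesis and the cell cycle, of which 64 could be tested. Of these 35 fell and 6 rose (54.7% lower and 9.38% higher, against 25.2% and 15.5% of all genes), and the median change was −0.53, against −0.11. Without control replicate 1, 19 fell and 3 rose, and without control replicate 2, 15 fell and 2 rose, as calls also dropped over all genes. The nucleolar proteins NOP56 (−1.90 ± 0.14 SE, limma adjusted p = 0.000309) and RRS1 (−1.66 ± 0.22 SE), the ribosome assembly factor GRWD1 (−1.33 ± 0.15 SE) and the nucleolar MYB-binding protein MYBBP1A (−0.93 ± 0.13 SE) had the smallest p among the falls. GRWD1 was at 9.42 and 10.9 FPKM in controls and 3.89, 3.19 and 3.27 FPKM in 3-NP cells. RRS1 was at 14.5 and 16.7 FPKM in controls and 5.53, 2.99 and 4.54 FPKM in 3-NP cells. MYBBP1A was at 11.9 and 12.3 FPKM in controls and 6.22, 5.40 and 5.98 FPKM in 3-NP cells. In none of these, taken for their small p, did the groups overlap, as in 64.2% of all genes tested. All 4 kept the call in every other setting.

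Some genes of the same list rose. The phosphatase DUSP2 was at 0.166 and 0.377 FPKM in controls and 1.56, 2.39 and 3.19 FPKM in 3-NP cells (1.39 ± 0.22 SE, limma adjusted p = 0.00338). The nucleolar chaperone NOLC1 was at 21.8 and 20.1 FPKM in controls and 35.3, 38.6 and 35.2 FPKM in 3-NP cells (0.77 ± 0.13 SE, adjusted p = 0.00449, and 0.0505 without control replicate 2). The nucleolar GTPase GNL3 rose by 0.61 ± 0.15 SE (adjusted p = 0.0155, and 0.0981 and 0.0936 without control replicate 1 or 2), and ODC1, the first enzyme of polyamine synthesis, by 1.85. DUSP2 and NOLC1 thus moved against the list's median, as did the cap-binding protein EIF4E and the nucleolar MPHOSPH10, which complete the 6. EIF4E and MPHOSPH10 lost their calls without either control (adjusted p of 0.16 and 0.166 for EIF4E and of 0.178 and 0.176 for MPHOSPH10) and in 5 other settings.

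Promoters were matched for 56 of the 70 activated targets, and 24 of them held CACGTG. That is 42.9%, against 7.44% of all promoters in the table and 10.3% of those of genes tested. The genes were listed as known MYC targets, so this share is no test of the list. Among the targets called lower it was in 9 of 30, and among those tested but not called lower in 13 of 22 (30% and 59.1%). These shares were not tested against each other. A pair of boxes from named genes that moved in opposite directions is shown with the box in capitals. That of MYBBP1A, which fell, begins at base 28 from the start (chr17:4555335-4555379, minus strand), and that of DUSP2, which rose, at base −113 (chr2:96145526-96145575, minus strand).
MYBBP1A: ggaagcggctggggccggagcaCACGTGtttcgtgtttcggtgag
DUSP2: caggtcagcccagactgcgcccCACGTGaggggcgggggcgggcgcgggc
Both windows carry the same 6 letters, although the genes moved in opposite directions.

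Of 11 tested genes that MYC is known to repress, 5 rose and 2 fell (45.5% higher and 18.2% lower, against 15.5% and 25.2% of all genes), with a median change of 0.72. Without 3-NP replicate 2, 3 rose and 1 fell, against 1443 and 2617 of all 11550 genes tested there. With either control left out fewer were called, as calls also dropped over all genes. NDRG1, a growth arrest gene also known to respond to low oxygen and iron loss, was at 2.77 and 2.55 FPKM in controls and 23.2, 20.8 and 24.9 FPKM in 3-NP cells. Its mean was 8.62 times higher, with every 3-NP library far above both controls (2.71 ± 0.14 SE, limma adjusted p = 0.000138). The growth arrest gene GADD45A was at 201 and 228 FPKM in controls and 615, 622 and 711 FPKM in 3-NP cells (1.59 ± 0.16 SE, limma adjusted p = 0.000726). The chaperone CLU rose by 1.53 ± 0.21 SE. CDKN1A, the p21 inhibitor of cyclin-dependent kinases, was at 789 and 854 FPKM in controls and 1262, 1341 and 1452 FPKM in 3-NP cells (0.72 ± 0.17 SE, adjusted p = 0.0132). Its call was lost without control replicate 1 (0.108) or 2 (0.0653), without 3-NP replicate 2 (0.0532), with no low-value filter (0.0851) and after quantile normalization (0.191). CDKN1C, the p57 inhibitor, completes the 5, at 0.557 and 0.694 FPKM in controls and 1.35, 7.5 and 10.9 FPKM in 3-NP cells, widely spread. Its call (adjusted p = 0.0383) was lost without control replicate 1 (0.145) or 2 (0.115), without 3-NP replicate 2 (0.0758), with no low-value filter (0.154) and with voom on recovered reads (0.0831). The p27 inhibitor CDKN1B (−0.71 ± 0.16 SE, adjusted p = 0.0118) and the matrix protein THBS1 (−0.65 ± 0.19 SE, adjusted p = 0.0306) fell, and without control replicate 1 or 2 their adjusted p was 0.064 and 0.0845 for CDKN1B and 0.218 and 0.0633 for THBS1. THBS1 was also lost without 3-NP replicate 2 (0.0838) or 3 (0.0744), with median-of-ratios scaling (0.072) and with no low-value filter (0.0995).

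**Figure D4:**
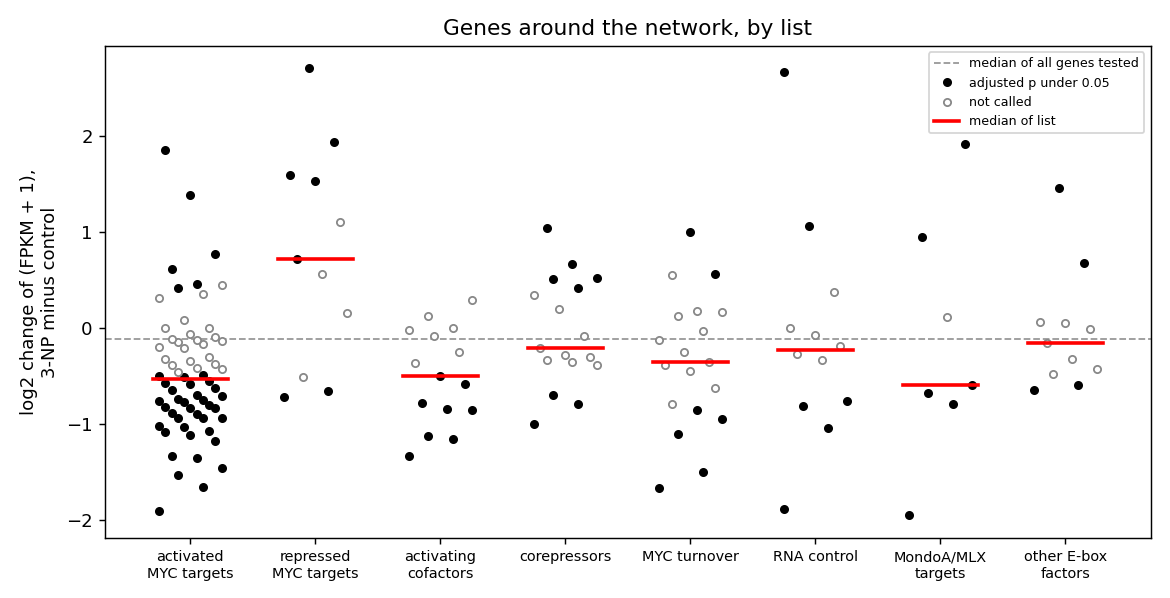
Fitted change of log2(FPKM + 1), 3-NP minus control (vertical axis), of each tested gene in 8 lists around the network; black dots were called, open dots were not, red bars are list medians and the dashed line is the median of all genes tested (−0.11). Activated MYC targets centre at −0.53 and repressed ones at 0.72, with called genes on both sides of 0 in both lists.

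Of the cofactors through which MYC activates transcription, 8 of 15 fell and none rose (53.3% lower, against 25.2%), with a median change of −0.50. With either control left out fewer of them were called, as calls also dropped over all genes. The acetyltransferase KAT5 (TIP60) was at 5.13 and 5.002 FPKM in controls and 1.58, 1.70 and 1.92 FPKM in 3-NP cells, 2.93 times lower (−1.15 ± 0.14 SE, limma adjusted p = 0.00116). HCFC1, a chromatin adaptor that binds MYC, was at 13.1 and 12.5 FPKM in controls and 5.35, 3.68 and 4.51 FPKM in 3-NP cells (−1.33 ± 0.17 SE, limma adjusted p = 0.00138). TRRAP, the scaffold that brings acetyltransferases to MYC, was at 5.45 and 3.98 FPKM in controls and 1.88, 1.64 and 1.32 FPKM in 3-NP cells (−1.12 ± 0.17 SE, limma adjusted p = 0.00298). The acetyltransferase KAT2A (GCN5) changed by −0.86 ± 0.18 SE (adjusted p = 0.00886, and 0.0809 without control replicate 2). In all 4, which were taken for the smallest p, the libraries of the groups stood apart, as in 64.2% of all genes tested.

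The list of corepressors of MXD and MNT, in which the MYC partner ZBTB17 is also counted, did not move one way. Of 17 tested, 5 rose and 3 fell (29.4% and 17.6%, against 15.5% and 25.2%), with a median change of −0.20. The scaffold SIN3A was at 2.92 and 2.36 FPKM in controls and 2.07, 1.79 and 1.51 FPKM in 3-NP cells (−0.39 ± 0.16 SE, limma adjusted p = 0.0873) and its relative SIN3B changed by −0.09 ± 0.15 SE (adjusted p = 0.667). These were named after their values were seen, as the direct partners of the MXD proteins. The complex subunit ING1 was at 1.19 and 1.78 FPKM in controls and 3.53, 3.99 and 4.77 FPKM in 3-NP cells (1.04 ± 0.17 SE, limma adjusted p = 0.00396). Its paralog ING2 (0.51) and the histone chaperone RBBP7 (0.52) rose, as did ZBTB17 (MIZ1), the factor through which MYC represses genes (0.42), and SAP30 (0.67). The histone chaperone RBBP4 was at 8.10 and 7.75 FPKM in controls and 2.56, 3.88 and 4.09 FPKM in 3-NP cells (−1.002 ± 0.19 SE, limma adjusted p = 0.0056). BRMS1L (−0.69) and NCOR1 (−0.79) fell as well. Of the 5 rises 1 was left without control replicate 1 or 3-NP replicate 3 and under the replicate block, 2 without control replicate 2 or 3-NP replicate 2, and 3 with equal FPKM totals. For NCOR1 the adjusted p was 0.303 without control replicate 1 and 0.0692 without 3-NP replicate 3, and it missed the threshold in 5 further settings. RBBP7, ING2 and ZBTB17 each lost the call under the replicate block and when either control, 3-NP replicate 2 or 3-NP replicate 3 was left out. ZBTB17 lost it also without 3-NP replicate 1 (0.0505), with equal FPKM totals (0.0745) and with no low-value filter (0.0556). SAP30 lost it without control replicate 1 or 3-NP replicate 3 (0.0782) and in 4 other settings.

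Among genes that act on the stability or ubiquitin marking of the MYC protein, 5 of 19 tested fell and 2 rose (26.3% lower and 10.5% higher, close to the 25.2% and 15.5% of all genes), with a median change of −0.35. FBXW7, the ubiquitin ligase subunit that marks phosphorylated MYC for destruction, was at 1.56 and 1.24 FPKM in controls and 1.87, 1.95 and 1.28 FPKM in 3-NP cells (0.16 ± 0.17 SE, limma adjusted p = 0.471), and was named after its values were seen. The ligase subunit FBXL14 was at 2.96 and 2.84 FPKM in controls and 7.32, 6.45 and 6.71 FPKM in 3-NP cells, 2.35 times higher (1.002 ± 0.13 SE, limma adjusted p = 0.00177). USP13, which removes ubiquitin from MYC in glioma cells, where it opposes FBXL14, was at 3.33 and 2.87 FPKM in controls and 1.15, 1.22 and 1.01 FPKM in 3-NP cells (−0.95 ± 0.14 SE, limma adjusted p = 0.00263). CIP2A, an inhibitor of the phosphatase PP2A that keeps MYC stable, was at 3.66 and 3.40 FPKM in controls and 0.798, 1.499 and 1.07 FPKM in 3-NP cells (−1.11 ± 0.17 SE, limma adjusted p = 0.00314). The PP2A subunit PPP2R5A, which takes part in MYC turnover, rose by 0.56 ± 0.18 SE (adjusted p = 0.0414, and 0.221 and 0.111 without control replicate 1 or 2, 0.0994 without 3-NP replicate 2, 0.0667 with equal FPKM totals and 0.104 with no low-value filter). The mitotic kinases AURKA (−1.66 ± 0.29 SE, limma adjusted p = 0.00426) and PLK1 (−1.502 ± 0.25 SE, limma adjusted p = 0.00395), both of which can stabilise MYC proteins, fell too, and FBXO28 completes the 5 falls (adjusted p = 0.156 without control replicate 1 and 0.085 with no low-value filter).

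Among genes known to act on MYC transcription or messenger RNA, 4 of 12 tested fell and 2 rose (33.3% lower and 16.7% higher, against 25.2% and 15.5% of all genes), with a median change of −0.23. ZFP36 (tristetraprolin), which binds AU-rich elements and speeds the decay of early response transcripts, was at 6.63 and 5.41 FPKM in controls and 50.9, 36.8 and 43.6 FPKM in 3-NP cells. Its mean was 7.27 times higher, with a wide gap between the groups (2.67 ± 0.18 SE, limma adjusted p = 0.000241). Its paralog ZFP36L1 was at 26.6 and 23.9 FPKM in controls and 61.4, 48.9 and 52.3 FPKM in 3-NP cells (1.07 ± 0.15 SE, limma adjusted p = 0.00235). IGF2BP1, which shields MYC messenger RNA from decay, was at 4.98 and 4.15 FPKM in controls and 0.645, 0.436 and 0.431 FPKM in 3-NP cells. It was 9.06 times lower (−1.89 ± 0.15 SE, limma adjusted p = 0.000375). IGF2BP3 (−0.75), the insulator protein CTCF (−1.03) and HNRNPK (−0.81) fell too. Leaving out control replicate 1 gave IGF2BP3 an adjusted p of 0.229 and HNRNPK one of 0.0783, HNRNPK had 0.0649 without control replicate 2, and IGF2BP3 had 0.102 with no low-value filter and 0.0552 after quantile normalization. PVT1, the long noncoding RNA gene beside MYC on chromosome 8, was at 1.71 and 1.72 FPKM in controls and 1.46, 1.42 and 1.89 FPKM in 3-NP cells, where the groups overlapped (−0.07 ± 0.15 SE, limma adjusted p = 0.713). It was named after its values were seen, as the neighbour of MYC.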

How the data were processed

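The members and gene lists were chosen with earlier results of these data known, from general knowledge of the network, and members were read from a fit over the whole table. Per the labels' protocols, TRIzol RNA went into stranded mRNA libraries. Base calling (bcl2fastq 2.17), trimming (Trimmomatic 0.39) and the aligner HISAT2 2.1 with GRCh38 are named in the submitters' processing notes. No source used here gives the counter, its annotation or its strand setting. Whether reads shared by overlapping genes were dropped was not tested. Among activated targets EIF4A1 (0.110 to 0.285 FPKM) and IPO4 (0 to 0.0424 FPKM) were listed very low and fell under the filter, while HSPE1 entered the fit at 1.10 to 2.20 FPKM. The deposited values, 1 per Ensembl gene and library, name no unit and were taken as FPKM: multiplied by GENCODE 29 exon-union lengths, 93.1% to 93.3% of nonzero values fell within 0.05 of a whole read, which also gave the depths.

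Testing used limma 3.58.1 in R 4.3.3, with the variance trended on the mean, on log2(FPKM + 1), which understates changes of low genes, with the group as the only term, all 5 libraries and 3 residual degrees of freedom. The fit was also run on simulated reads with known changes in far fewer genes than were called here, none of them at low levels. That run does not cover the conditions of these data. Lists are described by counts and medians only. Named genes were all members, MGA, MLXIP and MLXIPL, and up to 4 called genes per list and direction with the smallest p, and the genes nearest to MYC in profile; others are marked or complete a small count. Other settings were quantile normalization, equal FPKM totals, median-of-ratios scaling, no or a stricter low-value filter (every library of a group at 2 FPKM or more), 0.1 as pseudocount, the replicate number as a block, a length trend removed, voom on recovered reads, and each library left out. Some listed genes were not analysed here, and 1 gene that the naming rule took is not reported here.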

Additional observations from a re-analysis of the deposited data

How the results depend on the processing

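The calls of MYC and MXD4 held in all 14 other settings, that of MXD1 in 13 and that of MNT in 4. These settings are not independent. No control shares the number of 3-NP replicate 3, so the replicate block gave the same changes as leaving that library out. Both filter settings left the changes of these genes as in the main fit. Members called numbered 0 to 1 higher and 2 to 3 lower with a library left out, and 2 higher (MXD1 and MYCL) with no low-value filter. Leaving out a library gave 752 to 2147 genes higher and 1062 to 3107 lower over the whole table, against 1842 and 2991. It gave 2 to 7 activated targets higher and 15 to 36 lower, 3 to 6 repressed targets higher and 0 to 3 lower, 1 to 4 corepressors higher and 1 to 3 lower, 3 to 8 activating cofactors lower, and 1 to 2 turnover genes higher and 4 to 6 lower. Corepressors called higher numbered 3 with equal FPKM totals or no low-value filter and 1 under the replicate block. Turnover genes called higher numbered 1, and repressed targets called lower 1, with no low-value filter. Equal FPKM totals gave 1 turnover gene higher, and median-of-ratios scaling 1 repressed target lower. The cause of these shifts was not tested. The difference of the MYC to antagonist ratio, −0.413, lay between −0.473 and −0.363 with a library left out.

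Replicate numbers are shared between the groups for 1 and 2 only, and deviations from the group means correlated at 0.157 for number 1 and −0.351 for number 2. The deviations of 2 controls mirror each other, so these correlations cannot decide whether the numbers pair the samples. With the numbers as a replicate block, 1737 genes were higher and 2610 lower, and among members MNT lost its call (adjusted p = 0.151). Leaving out a control left the lone control assumed to vary like the 3-NP libraries. With 2 controls, the intervals of members that were not called reach 0.73 in size, and at this depth nothing can be said of MYCN.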

Other observations

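Of 11 tested other factors that bind E-boxes, 2 rose and 2 fell (18.2% each way, against 15.5% and 25.2% of all genes), and the median change was −0.16. ARNTL (BMAL1), a partner of CLOCK in the circadian clock, was at 1.34 and 0.842 FPKM in controls and 3.72, 5.52 and 5.06 FPKM in 3-NP cells, 4.37 times higher with no overlap (1.46 ± 0.19 SE, limma adjusted p = 0.00171), while CLOCK itself was not called (−0.42 ± 0.33 SE, adjusted p = 0.334). The sterol regulator SREBF2 (0.68) rose and SREBF1 (−0.64) and the lysosomal regulator TFE3 (−0.59) fell. All 3 lost the call without either control, with adjusted p of 0.160 and 0.154 for SREBF2, 0.120 and 0.201 for SREBF1 and 0.0751 and 0.105 for TFE3 without control replicate 1 or 2, and SREBF1 also with quantile normalization (0.124), median-of-ratios scaling (0.0806), the length trend removed (0.125), no low-value filter (0.126) and without 3-NP replicate 2 (0.0805). SREBF2 lost it also with equal FPKM totals (0.0818) and with no low-value filter (0.125). The ubiquitous E-box factors USF1 (−0.32 ± 0.16 SE, adjusted p = 0.147) and USF2 (−0.01 ± 0.17 SE, adjusted p = 0.979) were not called. CLOCK, USF1 and USF2 were named after their values were seen.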
